A study of Danio rerio with 2 samples.

Results

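Solute carriers are membrane proteins that move amino acids, sugars, organic acids, metals, phosphate, vitamins and other small solutes across the plasma membrane and the membranes of organelles. Hepatocytes use them to take nutrients from the blood, to pass metabolites between cytosol and mitochondria and to release bile acids and glucose. Arsenate resembles phosphate and is known to enter cells through phosphate carriers, while arsenite, to which cells reduce it, crosses some aquaglyceroporins in mammals. The genes described here are those whose current zebrafish symbol starts with slc and a digit, apart from slc40a1, slc7a11, slc25a20, slc2a1a, slc2a2, slc10a1 and slc4a1a. The tables list 189 such genes, of which 167 had at least 1 tag, and 113 reached the minimum of 10 tags over both libraries, out of 7839 genes of all kinds that did. Among genes of all kinds, a transcript without a symbol counts as 1 gene.

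Liver RNA of wild-type zebrafish siblings aged 3 months was profiled by 3' SAGE on the SOLiD system. Fish of the arsenate group were kept for 96 h with sodium arsenate, about 15 adults to a 3-L tank with daily renewal of the water, and fish of the water group were the controls. The sources used here give no dose, no sex and no number of fish per library. Each group is 1 library, with 4420935 tags for arsenate and 2592679 for water, so none of the differences below has a replicate check and no test between the conditions was possible.

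Values are tags scaled to a fixed library total (RPM), and a single tag amounts to 0.226 RPM for arsenate and 0.386 RPM for water. SAGE counts a transcript by 1 short tag near its 3' end, so levels of different genes are compared without a correction for length. A gene was called higher or lower where the ratio of RPM + 1, arsenate over water, was at least 2 or at most 0.5. Ratios in the text are of RPM without the added 1, and the brackets after them give 95% intervals for counting error alone.

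The label of the tissue was checked against marker genes. All 4 listed hepatocyte markers found in the tables had tags in both libraries, at a summed 31069 RPM for arsenate and 108732 RPM for water. Most of each sum was fabp10a, the only one called lower, and the other 3 were called neither. Markers of other tissues were present too. The 13 markers of exocrine pancreas summed to 2643 RPM and 31109.9 RPM, with 13 of 13 called lower, and the 5 of testis to 1.58 RPM and 303 RPM, with 4 of 4 called lower. The 6 enterocyte markers summed to 189 RPM and 354 RPM, with 1 called higher, 3 lower and 1 neither, and the 8 erythrocyte markers to 378 RPM and 493 RPM, with 3 lower and 3 neither. The 5 macrophage markers summed to 361 RPM and 490.2 RPM. Of these, cd74a and cd74b were called lower, and lgmn, at 310.1 RPM and 183.6 RPM, was neither. The 5 biliary markers summed to 5003 RPM and 1325 RPM, most of it krt18a.1 at 4765 RPM and 1043 RPM, which was called higher, while krt4 was called lower and 2 were neither. Of the kidney list only wt1b had tags, 2 in each library. In such tissue RNA, fewer cells of a type and less RNA per cell cannot be told apart.

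Among the 113 solute carrier genes, 13 were at least 2-fold higher in the arsenate library, 23 were at least 2-fold lower and 77 were neither. That is 11.5% higher and 20.4% lower, where all genes tested gave 15.6% higher and 14.4% lower. The median log2 ratio of the 113 was -0.03 beside 0.03 for all genes tested, so the middle of the group lay where the middle of the transcriptome lay. The genes called higher made up 36.1% of the solute carrier calls. With totals that leave out the 10 most abundant genes of each library the split was 23 higher and 19 lower, or 54.8% higher. All genes moved with it: that scaling raised their median log2 ratio by 0.22 and gave 21.4% of them higher and 12.4% lower, beside 20.4% and 16.8% of the solute carrier genes. Over all genes the higher calls were 63.3% of calls with that scaling and 52.1% without it. The interval left out 1 for 33 of the 36 genes called, and for 26 of those called neither. It lay above 1 for 29 of the 113 and below 1 for 30, beside 1857 and 1747 of all 7839 genes.

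All 189 genes together held 0.511% of arsenate tags (0.505 to 0.518) and 0.856% of water tags (0.845 to 0.868). Much of this gap was 1 gene, slc25a48. Without it the shares were 0.454% (0.448 to 0.460) and 0.591% (0.582 to 0.601). Without the 5 genes with the most tags (slc25a48, slc51a, slc38a4, slc31a1 and slc25a3b) they were 0.279% (0.274 to 0.284) and 0.345% (0.338 to 0.352). The order of the most abundant carriers differed between the libraries. In the arsenate library the first was slc51a, with 17.5% of all solute carrier tags, and slc25a48 was second with 11.3%. In the water library slc25a48 was first with 30.95%, slc38a4 second with 12.3% and slc51a next with 8.17%.

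**Figure D1:**
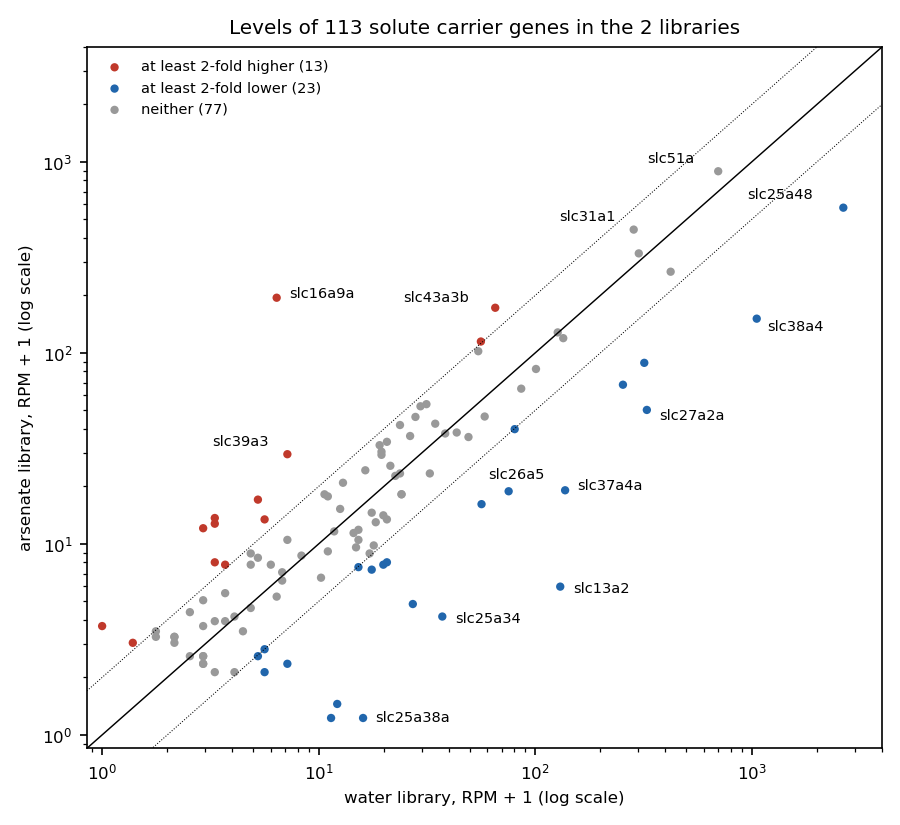
Level of each of the 113 solute carrier genes, in RPM + 1, in the arsenate library (vertical axis) against the water library (horizontal axis), both on log scales; the solid line marks equal levels and the dotted lines 2-fold. The 13 genes called higher (red) lie mostly at low water levels, with slc16a9a farthest from the line, while the 23 called lower (blue) include abundant genes such as slc25a48 and slc38a4.

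Sorted by substrate, metal carriers had the highest median log2 ratio, 0.76, and sugar carriers the lowest, -0.69. The slc35 genes, grouped as nucleotide sugar carriers though not all are known as such, had 0.74. The slc20, slc34 and slc26 genes, grouped as phosphate and sulfate carriers, had 0.64. The median of metal carriers rests on 14 genes, and those of the sugar, slc35 and phosphate and sulfate groups on 6 each. Of genes grouped elsewhere that also move phosphate or sulfate, slc13a1, slc25a3b and slc37a4a, each below 1, were added. The median of the phosphate and sulfate group was then 0.28 over 9 genes, of which 3 were called lower. This wider group is not complete. It leaves out slc25a25a and slc25a24 of the ATP-magnesium and phosphate carriers, at ratios of 0.886 and 1.95. It also leaves out slc37a2, a relative of slc37a4a, at 1.41. None of them was called, and the median of the wider group depends on which genes are added. Mitochondrial carriers (-0.25 over 30 genes), vitamin, choline and fatty acid carriers (-0.32 over 9) and organic ion and bile acid carriers (-0.53 over 9) lay below 0. Carboxylate carriers, over 9 genes, and sodium, proton and other ion exchangers, over 3, had the same median of -0.53. Carriers of amino acids, peptides and amines lay at -0.07 over 20 genes, which turned to 0.15 with the scaling that leaves out the most abundant genes. With it the median of all genes was 0.24. A scaling shifts all genes alike, so the distance of this family from all genes could not change. The other family medians kept their sign under every scaling tried, that of mitochondrial carriers only at -0.03 with the same scaling.

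**Figure D2:**
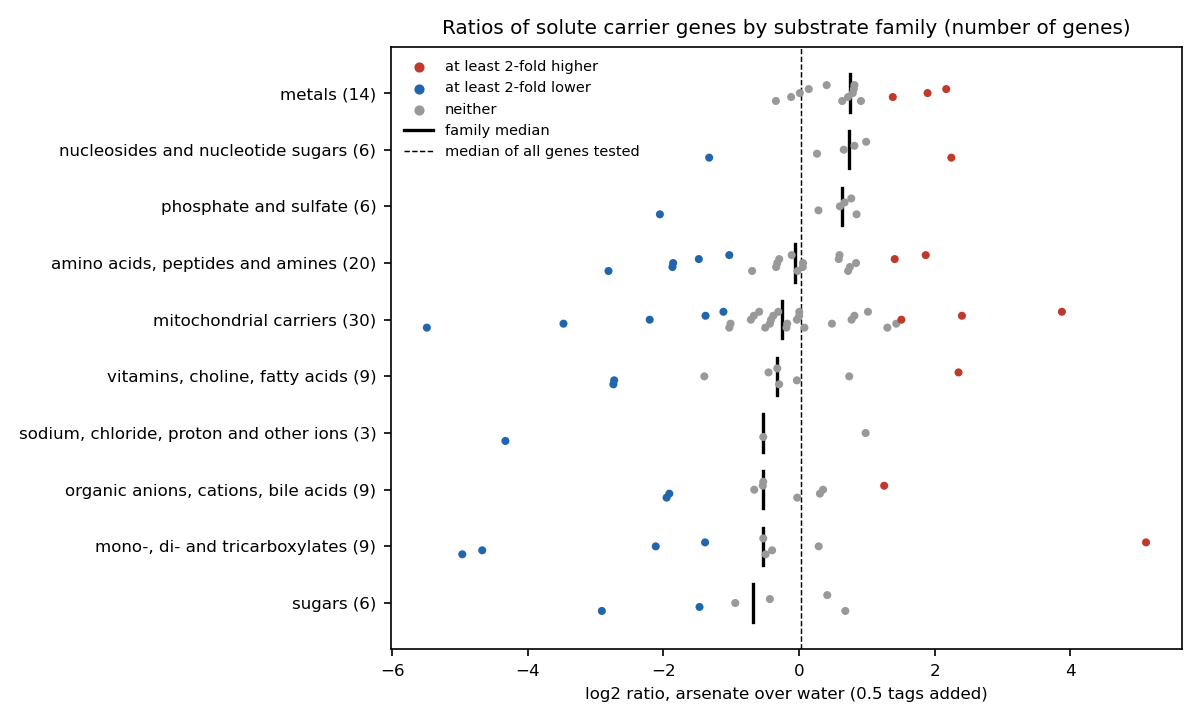
Log2 ratio, arsenate over water with 0.5 tags added, of each solute carrier gene by substrate family, with the number of genes per family in brackets; thick bars are family medians and the dashed line is the median of all genes tested, 0.03. No metal carrier was called lower, and the widest spread is among the mono-, di- and tricarboxylate carriers and the mitochondrial carriers. One gene of no listed family, slc67a1, is not drawn.

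Phosphate carriers come first because they handle the ion that arsenate resembles. None of the plasma membrane members was called. The gene slc20a1b, a sodium-phosphate cotransporter of most tissues, had 28.3 RPM for arsenate and 18.5 RPM for water, a ratio of 1.53 (1.09 to 2.18). Its co-ortholog slc20a1a stood at 6.79 RPM and 3.86 RPM, a ratio of 1.76 (0.837 to 4.03). The remaining slc20a2 had 4 tags and 0 tags. The sodium-phosphate cotransporter slc34a2b had 13 tags for arsenate and 6 for water, and slc34a2a had none in either library, which allows up to 0.679 RPM and 1.16 RPM. Inside the cell, slc25a3b, which brings phosphate into mitochondria for ATP synthesis, was the most abundant of these at 265 RPM and 422 RPM, a ratio of 0.629 (0.579 to 0.684), within the 2-fold limit. The carrier slc37a4a exchanges glucose-6-phosphate for phosphate across the endoplasmic reticulum, a step of glucose release. It had 18.1 RPM and 136.5 RPM, 80 tags against 354, and was 7.55-fold lower in the arsenate library (5.90 to 9.74).

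Of the slc26 anion exchangers, counted with the phosphate carriers, slc26a5 was called lower at 17.9 RPM for arsenate and 74.4 RPM for water, 4.17-fold (3.19 to 5.48). Its mammalian counterpart prestin is known as the motor protein of outer hair cells. The chloride and bicarbonate exchanger gene slc26a3.2 went the other way without reaching 2-fold, at 51.6 RPM and 28.5 RPM, a ratio of 1.81 (1.38 to 2.38), and was called higher with the scaling that leaves out the most abundant genes. The sulfate carrier slc26a1 had 9 tags and 3 tags.

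Of 14 metal carriers, 3 were called higher, 0 lower and 11 neither. That is 21.4% higher and 0% lower, beside 15.6% and 14.4% of all genes. With the scaling that leaves out the most abundant genes, slc39a7, slc30a4 and slc30a5 were called too, which made 6 higher and 0 lower. The ratio was above 1 for 12 of the 14, beside 4074 of all 7839 genes. Across the scalings it was above 1 for 11 to 13 of the 14. Summed, the 14 stood at 1181 RPM for arsenate and 859.7 RPM for water. The zinc importers of the slc39 family bring zinc into the cytosol from outside or from organelles. They were above 1 in 5 of 5, beside 4074 of all 7839 genes. Among them slc39a3, a plasma membrane importer in mammals, had 28.5 RPM and 6.17 RPM, a ratio of 4.62 (2.74 to 8.33). The Golgi zinc carrier slc39a9 had 12.4 RPM and 4.63 RPM, 2.69-fold higher (1.42 to 5.51). The remaining call, slc39a13, rested on 9 tags against 1, with an interval from 0.731 to 231. The endoplasmic reticulum carrier slc39a7, the most abundant of the 5, was at 101 RPM and 53.6 RPM, just under the limit at 1.89-fold (1.56 to 2.30).

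Zinc exporters of the slc30 family, which move zinc out of the cytosol, were called neither in 6 of 6, although slc30a4 and slc30a5 just reached 2-fold with the scaling that leaves out the most abundant genes. Of the 6, 5 had a ratio above 1, beside 4074 of all 7839 genes. The plasma membrane exporter slc30a1a had 52.9 RPM and 30.5 RPM (1.74-fold, 1.34 to 2.27), slc30a5 31.9 RPM and 18.1 RPM, slc30a4 17.2 RPM and 9.64 RPM, and slc30a9 19.9 RPM and 11.96 RPM. These ratios lay between 1.66 and 1.78 with intervals above 1. The most abundant exporter, slc30a7 of the Golgi, was level at 127 RPM and 126 RPM, and slc30a6, the partner of slc30a5 in a zinc-loading complex, had 16 tags and 10 tags, a ratio of 0.938. The 2 abundant metal carriers of the liver were the copper importer slc31a1, at 442 RPM and 284 RPM (1.55-fold, 1.43 to 1.69), and the divalent metal and iron importer slc11a2, at 331 RPM and 300.1 RPM (1.104-fold, 1.01 to 1.205). The heme carrier slc48a1b had 4.30 RPM and 5.40 RPM, 19 tags against 14, a ratio of 0.796 (0.378 to 1.72).

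**Figure D3:**
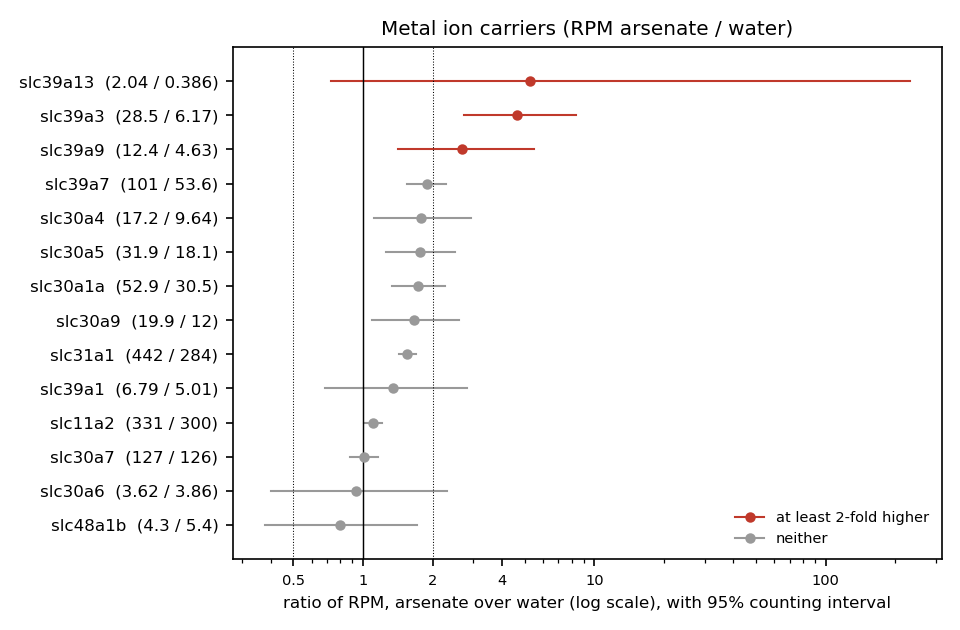
Ratio of RPM, arsenate over water, of the 14 metal ion carriers on a log axis with 95% counting intervals; numbers beside the names are RPM in the arsenate and the water library, dotted lines mark 2-fold and colours give the calls by RPM + 1. The 3 genes called higher (red) are zinc importers, and the intervals of the abundant slc31a1 and slc11a2 are narrow.

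Carriers of amino acids, peptides and amines split by family. Of 20 genes, 2 were called higher (10%), 5 lower (25%) and 13 neither, beside 15.6% and 14.4% of all genes. Without its slc38 genes the group gave 13.3% in each direction. The summed level of the 20 was 735.6 RPM for arsenate and 1816 RPM for water. The sodium-coupled neutral amino acid carriers of the slc38 family accounted for 259.9 RPM and 1404 RPM of this, and the other 15 genes for 475.7 RPM and 411.9 RPM. The gene slc38a4, a hepatocyte carrier in mammals, had 150.2 RPM and 1055 RPM, 7.02-fold lower in the arsenate library (6.45 to 7.65). The gene slc38a2, a widely expressed carrier that mammalian cells induce when starved of amino acids, had 87.8 RPM and 318 RPM, 3.63-fold lower (3.21 to 4.10). A less abundant member, slc38a5b, which in mammals carries glutamine, was 2.80-fold lower at 7.01 RPM and 19.7 RPM. The other 2 of the family, slc38a6 and slc38a7, had 42 tags against 16 and 24 tags against 15, ratios of 1.54 and 0.938 that were not called.

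Both cationic amino acid carriers measured were lower. The arginine and lysine carrier slc7a2 had 15.2 RPM and 55.5 RPM (3.66-fold, 2.72 to 4.97), and slc7a3a 38.9 RPM and 79.5 RPM. The call of slc7a3a, at 2.04-fold, was lost with the scaling that leaves out the most abundant genes. The slc3a2 heavy chain, which escorts several slc7 light chains to the membrane, has a pair of co-orthologs here. The more abundant, slc3a2b, had 33.3 RPM and 19.7 RPM (1.69-fold, 1.22 to 2.37), and slc3a2a 7.69 RPM and 7.33 RPM.

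The 2 genes called higher in this group were slc43a3b and slc15a2. The first had 171 RPM and 64.4 RPM, 758 tags against 167, a ratio of 2.66 (2.25 to 3.17), and its mammalian counterpart carries purine nucleobases rather than amino acids. Its relatives slc43a1b and slc43a2a, carriers of large neutral amino acids, were within 2-fold at 45.5 RPM and 57.5 RPM and at 36.9 RPM and 37.4 RPM. The peptide carrier slc15a2 had 16.1 RPM and 4.24 RPM, a ratio of 3.79 (1.99 to 7.92). The aromatic amino acid and thyroid hormone carrier slc16a10 was 1.80-fold higher (1.33 to 2.46) and was called with the scaling that leaves out the most abundant genes. The neurotransmitter family slc6 had 4 genes with enough tags, none of them called, at ratios from 0.619 for slc6a22.1 to 1.06 for slc6a7. The entry slc7a6os fits the naming rule but is not a carrier. It is named for lying opposite the gene slc7a6, and its 103 tags against 40 cannot be assigned to a strand without the counting rule of the tables.

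**Figure D4:**
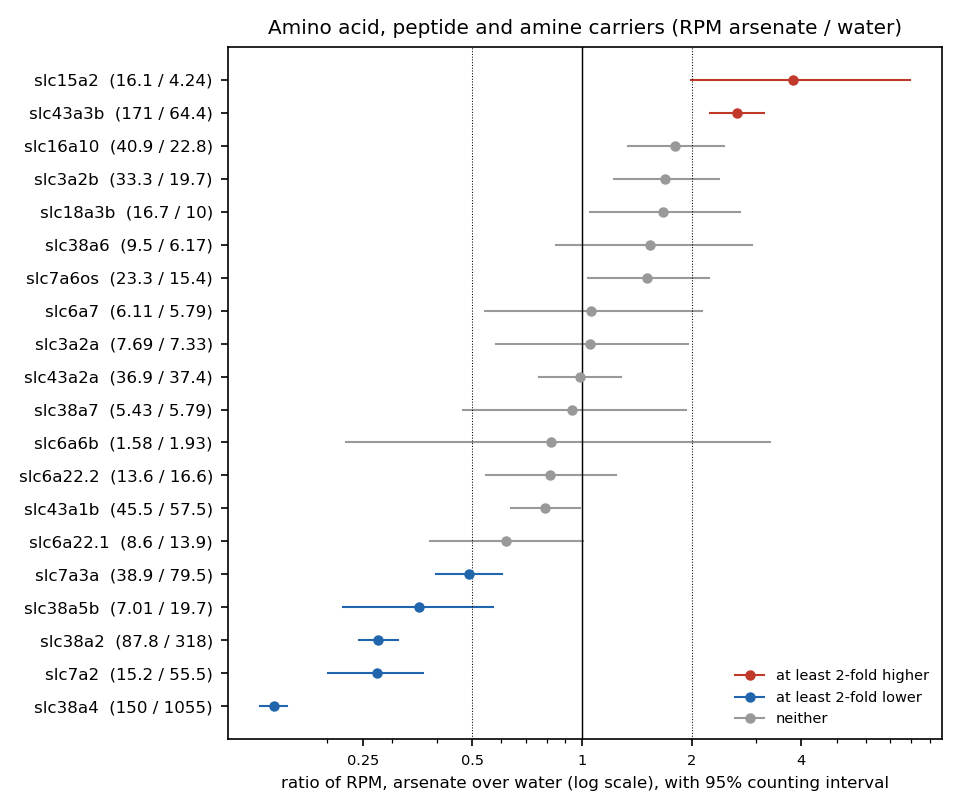
Ratio of RPM, arsenate over water, of the 20 genes in the amino acid, peptide and amine group on a log axis with 95% counting intervals; numbers beside the names are RPM in the arsenate and the water library, dotted lines mark 2-fold and colours give the calls by RPM + 1. The 5 genes called lower (blue) belong to slc38 and slc7, and slc38a4 is farthest from 1.

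Mitochondrial carriers of the slc25 family shuttle nucleotides, phosphate, amino acids, iron and cofactors across the inner membrane. Of 30 genes, 3 were called higher (10%), 5 lower (16.7%) and 22 neither, beside 15.6% and 14.4% of all genes. The summed level of the 30 was 1272 RPM for arsenate and 3612 RPM for water. With the scaling that leaves out the most abundant genes the calls were 6 higher and 4 lower, as slc25a14, slc25a44b and slc25a47a, each with 12 to 19 tags in all, were called higher and slc25a55a was no longer called. The most abundant was slc25a48, whose mammalian counterpart imports choline into mitochondria. It had 575 RPM and 2650.15 RPM, 2544 tags against 6871, and was 4.61-fold lower (4.40 to 4.82). The gene slc25a34 had 3.17 RPM and 36.3 RPM, 11.4-fold lower (6.50 to 21.7), and slc25a43 6.33 RPM and 16.6 RPM, 2.62-fold lower (1.59 to 4.38). The glutamate carrier slc25a55a, formerly named slc25a22, was 2.18-fold lower (1.30 to 3.67).

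Among carriers that supply heme synthesis, 1 was called lower and 1 higher. The gene slc25a38a, whose human counterpart brings glycine into mitochondria for heme, had 1 tag for arsenate and 39 for water, a ratio of 0.0150 (0.000371 to 0.0889). The iron importer of red cell precursors, slc25a37 or mitoferrin, had 12 tags for arsenate and 0 for water. Set against the 3 tags that a count of 0 allows, its ratio was 2.35. The lower end of its counting interval was 1.63. The other mitoferrin, slc25a28, was neither, at 17.2 RPM and 23.1 RPM, and slc25a39, linked to mitochondrial glutathione import in mammals, was at 22.4 RPM and 31.6 RPM. Of 6 erythrocyte markers with enough tags, 3 were called lower and 3 neither, and their part in these values was not tested.

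The other calls among mitochondrial carriers were of amino acid exchange. The aspartate and glutamate exchanger slc25a12 had 49 tags against 5, 5.75-fold higher (2.30 to 18.5), and the ornithine carrier slc25a15a, part of the urea cycle, 31 tags against 6, 3.03-fold higher (1.25 to 8.88). Carriers of adenine nucleotides were not called by the ratio of RPM + 1. The ADP and ATP exchanger slc25a5 had 7.92 RPM and 16.2 RPM, 2.05-fold lower without the added 1 (1.28 to 3.30). It was called lower by an exact binomial test on the tags of the pair of libraries, joined to a 2-fold limit on that ratio. The ATP-magnesium and phosphate carrier slc25a25a had 119 RPM and 134 RPM. The oxoglutarate carrier slc25a11 was at 37.3 RPM and 42.4 RPM, and slc25a46, of the mitochondrial outer membrane, at 21.7 RPM and 21.6 RPM.

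**Figure D5:**
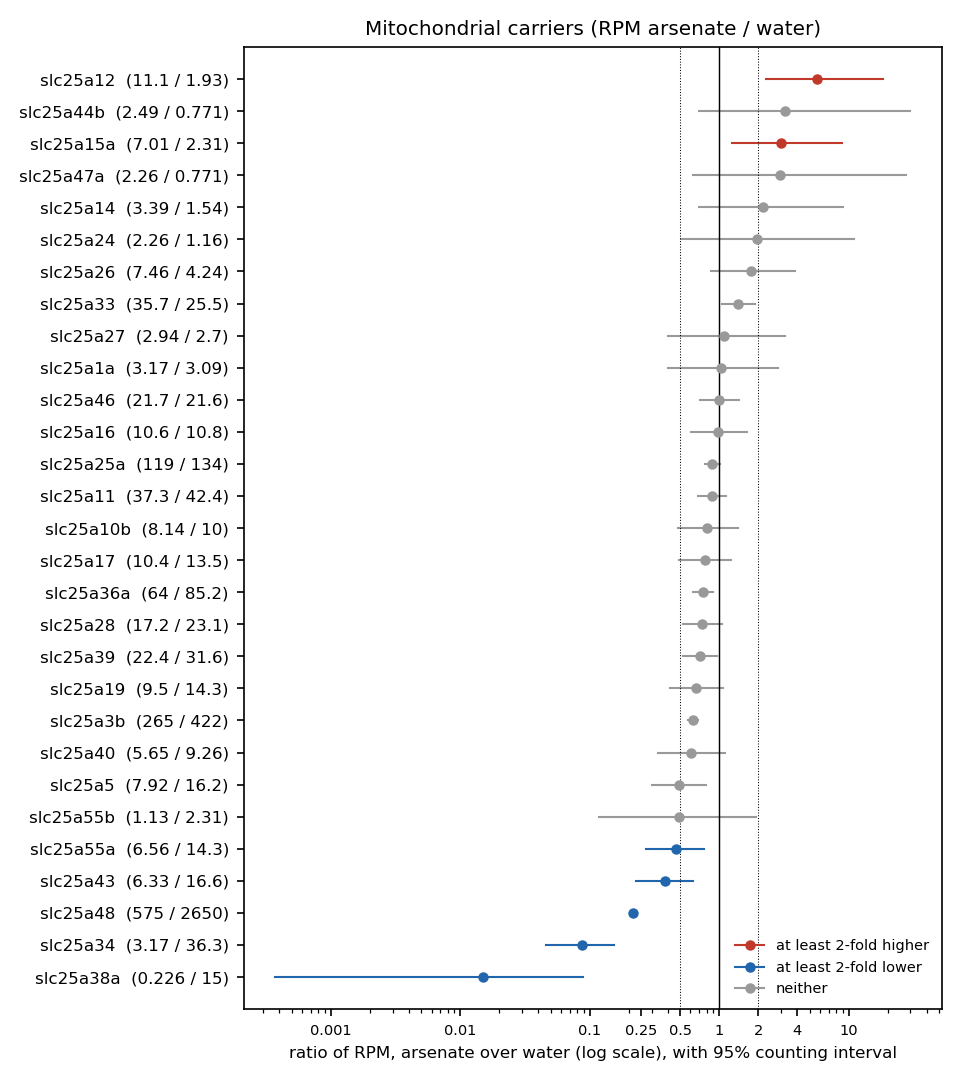
Ratio of RPM, arsenate over water, of 29 mitochondrial carriers on a log axis with 95% counting intervals; numbers beside the names are RPM in the arsenate and the water library, dotted lines mark 2-fold and colours give the calls by RPM + 1. The gene slc25a37, with 0 tags in the water library, has no ratio and is not drawn; most other genes lie within 2-fold, and slc25a48 has the narrowest interval.

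By the ratio of RPM + 1, carriers of monocarboxylates and of di- and tricarboxylates held both extremes of the whole set, 30.4 for slc16a9a and 0.0458 for slc13a2. Of 9 genes, 1 was called higher (11.1%), 4 lower (44.4%) and 4 neither, beside 15.6% and 14.4% of all genes. The gene slc16a9a, whose human counterpart has been linked to carnitine levels, had 193.6 RPM for arsenate, from 856 tags, and 14 tags for water. Its co-ortholog slc16a9b had 11 tags against 9. Its ratio of 0.717 (0.270 to 1.96) and that of slc16a9a (21.3 to 65.9) had intervals that did not overlap. Tags of the pair are told apart only as far as the mapping of the tables did so. Of the other monocarboxylate carriers, slc16a7 was called lower on 6 tags against 16, while the lactate and pyruvate carrier slc16a1b had 48 tags against 37 and slc16a4 63 against 30. The slc5a8l gene, a sodium-coupled monocarboxylate carrier, was called lower on 7 tags against 11, with an interval that held 1, and lost the call with the scaling that leaves out the most abundant genes.

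The slc13 carriers, which take up citrate, succinate or sulfate with sodium, were below 1 in 3 of 3, beside 3765 of all 7839 genes. The dicarboxylate carrier slc13a2 had 4.98 RPM and 129.6 RPM, the sulfate carrier slc13a1 1 tag and 27 tags, and the citrate carrier slc13a5a 13.1 RPM and 18.9 RPM, a ratio of 0.694 (0.466 to 1.04). Proteins encoded by slc13a1, slc13a2, slc9a3 and slc5a1 are known in mammals from the brush border of kidney or intestine. The same is known of the counterparts of other genes above 1 here. Of these, slc15a2 and slc5a6b were called higher, and slc26a3.2 and slc34a2b had ratios of 1.81 and 1.27. The sodium-proton exchanger slc9a3.1 had 2 tags against 29, 24.7-fold lower (6.25 to 214). The other copy, slc9a3.2, had 5 tags against 1, under the minimum. The sodium-glucose carrier slc5a1 had 6.79 RPM and 18.9 RPM, 2.79-fold lower (1.73 to 4.54). Among enterocyte markers, vil1 had 22 tags against 78, fabp2 6 against 51 and chia.2 16 against 111, all called lower. The abundant apoa4b.2 was at 142 RPM and 245 RPM, and cdh17 was called higher at 36.9 RPM and 16.6 RPM. Their part in the values of these carriers was not tested.

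Of the other sugar carriers none was called. The gene slc5a9 had 8.82 RPM and 16.97 RPM (ratio 0.520, 0.329 to 0.819), and the glucose carrier slc2a12 17.2 RPM and 23.1 RPM. Fewer tags were found for slc2a8, 20 against 7, and for slc37a2, 12 against 5. Together with slc37a4a and slc5a1, this gave 0 of 6 higher and 2 of 6 (33.3%) lower, beside 15.6% and 14.4% of all genes. Of 2 other ion exchangers, slc9a7 of the Golgi had 18 tags against 5, and slc9a6a of endosomes 6 against 5, neither called. The scaling that leaves out the most abundant genes called slc9a7 higher.

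Organic ion and bile acid carriers gave 1 call higher, 2 lower and 6 neither of 9. This was 11.1% higher and 22.2% lower, beside 15.6% and 14.4% of all genes. The most abundant, slc51a, encodes a subunit of the carrier that exports bile acids and steroids across the basolateral membrane, and had 893 RPM and 699.7 RPM, a ratio of 1.28 (1.21 to 1.35). The organic cation carrier slc22a2 had 67.2 RPM and 253 RPM and was 3.77-fold lower (3.28 to 4.34). Its relative slc22a3 had 5 tags against 12, while slc22a15 was level at 22.4 RPM and 22.8 RPM. The drug and cation exporter slc47a1 had 53 tags against 45. The vesicular nucleotide carrier slc17a9b was called higher on 30 tags against 7 (2.51-fold, 1.08 to 6.78). The gene slc67a1, formerly slc22a18, had 114 RPM and 55.2 RPM, a ratio of 2.06 (1.71 to 2.50) that came to 1.97 and 1.99 for RPM + 1, just under the limit, with TMM and median-of-ratios scaling.

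Fatty acid carriers of the slc27 family, which couple uptake to acyl-CoA synthesis, were below 1 in 4 of 4, beside 3765 of all 7839 genes. The liver member slc27a2a, which in mammals also activates very long-chain fatty acids, had 49.3 RPM and 327 RPM, 6.63-fold lower (5.71 to 7.73). The gene slc27a6 had 3.85 RPM and 26.2 RPM, 6.82-fold lower (3.96 to 12.4). The co-orthologs slc27a1b and slc27a1a were within 2-fold, at ratios of 0.815 (0.693 to 0.960) and 0.732 (0.575 to 0.934). Among vitamin carriers, slc5a6b, which takes up biotin and pantothenate, had 12.7 RPM and 2.31 RPM, 5.47-fold higher (2.36 to 15.5). The slc49a4 gene had 200 tags against 70 (1.68-fold, 1.27 to 2.23), and the choline family gene slc44a4 had 7 tags and 4 tags.

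Nucleotide sugar carriers of the slc35 family feed glycosylation in the Golgi and endoplasmic reticulum. The 6 slc35 genes with enough tags, not all of them known as such carriers, gave 1 call higher, 1 lower and 4 neither. That is 16.7% in each direction, beside 15.6% higher and 14.4% lower of all genes. The ratio was above 1 for 5 of 6, beside 4074 of all 7839 genes. The gene slc35h1 had 52 tags against 6, 5.08-fold higher (2.18 to 14.5). The lower call, slc35f2, rested on 8 tags against 12 with an interval of the ratio from 0.139 to 1.04, and was lost with the scaling that leaves out the most abundant genes. The more abundant slc35f6 and slc35b4 were at 29.4 RPM and 18.5 RPM and at 24.7 RPM and 20.4 RPM, and slc35b3, which supplies activated sulfate, at 7.92 RPM and 3.86 RPM (2.05-fold, 0.995 to 4.65). The scaling that leaves out the most abundant genes called slc35b3 higher.

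In all, 6 pairs of close duplicates had both members at 10 tags or more, and no pair was called in opposite directions. In 4 of them (slc20a1, slc27a1, slc3a2 and slc6a22) neither copy was called. In slc16a9 and slc25a55 the a copy was called and the b copy was not. The ratios of the slc25a55 copies were nonetheless close, 0.460 (0.273 to 0.768) for a and 0.489 (0.118 to 1.92) for b, which had 5 tags against 6.

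Of 25 membrane transport genes without an slc number that had at least 10 tags, 0 were called higher, 3 lower and 22 neither. That is 0% higher and 12% lower, beside 15.6% and 14.4% of all genes, at a median log2 ratio of -0.46. The aquaglyceroporin aqp3a, which in mammals passes water, glycerol and arsenite, was called lower on 6 tags for arsenate and 56 for water. Of the same class, aqp10a had 28 and 21 tags and was neither, and aqp7, under the minimum, had 0 and 6. The genes aqp3b, aqp9a, aqp9b and aqp10b were not listed. The peroxisomal fatty acid carrier abcd3a was at 504 RPM and 1674 RPM and the organic anion exporter abcc4 at 30.8 RPM and 74.1 RPM. The exporter abcc2, which in mammals sends glutathione conjugates of arsenic into bile, had 2 tags and 0 tags. The basigin gene bsg, an escort of monocarboxylate carriers, had 154 tags against 57 (1.58-fold, 1.16 to 2.19).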

How the data were processed

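Each table the authors deposited lists 17991 transcripts under a TPM header. The deposited values were read as RPM: both columns have the same sum, and dividing a column by its smallest value gave whole tags for 100% of entries, to within 0.01. A blank was read as 0. The mapping tool, transcript release and filters are not stated in the labels or headers. RefSeq accessions (10556) were looked up in the RefSeq genes of GRCz12tu, which named 9463. Transcripts of 1 symbol were summed, and each transcript without a symbol was kept as a gene of its own, which gave 17963 genes. The shares of all genes therefore include unnamed transcripts, while solute carrier genes are all named. Each solute carrier gene was 1 transcript.

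Genes with at least 10 tags were called by the ratio of RPM + 1. Intervals of a ratio come from exact Clopper-Pearson limits on how many of its tags were from the arsenate library, and tag shares have the same kind of limits. Tags copied by PCR would make them too narrow. Medians of log2 ratios use 0.5 added tags. With 1 library per group, an exact binomial test on the tags compares the libraries, not the conditions, and served as an alternative. A call by it needed an adjusted p below 0.05 and a ratio without the added 1 of at least 2 or at most 0.5. With both conditions, 1084 genes of all kinds were called higher and 1065 lower. Genes named are those of each substrate family with the most tags, up to 4 calls in each direction with the interval bound farthest from 1, the phosphate carriers, and other genes chosen after their values were seen. Genes and lists were chosen with earlier results of these data known. Tools were Python 3.11.15, scipy 1.17.1, R 4.3.3, edgeR 4.0.16 (TMM) and DESeq2 1.42.0 (median of ratios). Steps were tested on simulated libraries.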

Additional observations from a re-analysis of the deposited data

How the results depend on the processing

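The 13 genes higher and 23 lower stayed within 1.5 times in 15 of 20 recounts, TMM and median-of-ratios scaling included (12 and 23 with each). The exceptions were 23 genes higher with totals that leave out the 10 most abundant genes (beside 21.4% of all genes), 7 higher with a pseudocount of 5 RPM (beside 7.40%), 35 higher at a fold of 1.5 (beside 27.8%), and 4 higher and 10 lower at a fold of 4. At a fold of 4 the background was 3.87% higher and 4.48% lower. At a fold of 1.5, 31 genes were lower, beside 24.4% of all genes, so the calls no longer leaned to lower. The exact test on tags, joined to a 2-fold limit on the ratio without the added 1, called 11 genes higher and 22 lower. Of these, 11 and 21 were also called by the ratio of RPM + 1. The shares of all genes were 13.8% and 13.6%. It did not call slc17a9b, slc39a13, slc35f2 and slc5a8l, and it added slc25a5 as lower. Of 44 recomputed family medians, 1 changed sign, that of amino acid, peptide and amine carriers, to 0.15 with totals that leave out the most abundant genes. With those totals the median of all genes was 0.24. A scaling multiplies the ratio of every gene alike, by 0.964 with TMM, 0.974 with median of ratios and 1.16 with totals that leave out the most abundant genes. With the last, 8 of the genes called or named by rule left their counting interval, on the same side of 1. Taking the transcript with the most tags in place of the sum could change no solute carrier gene, since each was 1 transcript. The wider phosphate and sulfate group, with a median of 0.28, was added after seeing the data and does not hold every carrier of these ions. No paired analysis was possible because each group has 1 library. Depth limits the genes with few tags most: 40 of the 113 had 10 to 49 tags.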

Other observations

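Below the minimum of 10 tags, 54 solute carrier genes had 1 to 9 tags, of which 19 had tags for arsenate alone, 12 in the water library alone and 23 in both. That is 35.2% and 22.2% in 1 library alone, beside 34.5% and 25.9% of the 6229 genes of all kinds with so few tags. The arsenate library is 1.71 times as deep, and the tags of the 54, 121 for arsenate and 70 for water, gave a ratio of summed RPM of 1.01. The same ratio was 0.793 for the 6229 genes of all kinds. Just outside the minimum, with 9 tags, the slc35 family genes slc35a3a and slc35e4 each had 9 tags for arsenate and 0 for water. Set against the 3 tags that a count of 0 allows, the ratio of each was 1.76. The lower end of each counting interval was 1.16. The choline family gene slc44a2 had 8 tags for arsenate and 1 for water, and the glutamate carrier gene slc1a3a 4 and 5. Just inside it, with 10 or 11 tags, were slc39a13, slc17a5, slc25a55b, slc44a4 and slc9a6a, of which slc39a13 was called. No tag was found in either library for 22 genes, among them the proton-coupled peptide carrier gene slc15a1b and the sodium-chloride carrier gene slc12a3, both known in mammals from intestine or kidney. Near the limit of 2-fold, the ratio of RPM + 1 was 1.97 for slc25a44b and 0.518 for slc25a5, both outside it, and 0.496 for slc7a3a and 0.495 for slc25a55a, both inside it.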
